A study of Mus musculus with 12 samples.

Results

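Cerebellar granule cells are the small excitatory neurons of the cerebellum, and 10 genes of their lineage were followed across wild-type and NR3B knockout mice at birth and 5 days later. The genes are Atoh1, Pax6, Zic1, Zic2, Barhl1, Ccnd2, Neurod1, Neurod2, Insm1 and Mfap4. They were matched to the probe sets that carry only that gene's symbol, 26 probe sets in all, among the 18193 genes with such a probe set. Each gene is represented by the probe set with the highest mean signal over the 12 samples, and the others served as a check. The members were selected on earlier results of these same samples, among them their change with age, so the counts over them describe the set and do not stand as independent evidence of its direction.

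RNA was read on Affymetrix arrays, with 3 samples in each of 4 groups. These are wild type at postnatal day 0 (P0WT), NR3B knockout at day 0 (P0KO), wild type at day 5 (P5WT) and NR3B knockout at day 5 (P5KO). Grin3b is the gene for NR3B, a subunit of NMDA receptors. One label lists brain together with hindbrain and spinal cord as the tissue, and another lists brain alone. How much of each region a sample holds, the allele, the strain, the sex and whether animals were pooled are not given in the sources used here. Nor is it said whether each sample was a different animal, so the spread between the 3 arrays of a group may be partly technical. Each p-value rests on an estimate of that spread shared by the 4 groups.

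Granule cells arise from the rhombic lip of the hindbrain. Their precursors, which express the transcription factor Atoh1, move over the surface of the cerebellum and form the external granular layer, where they divide in response to Sonic hedgehog from Purkinje cells during the first postnatal weeks. Cells that leave the cycle switch on Neurod1, extend axons and migrate inwards past the Purkinje cells. None of the 10 genes is restricted to this lineage. Pax6, Neurod1, Neurod2 and Insm1 are also used by newborn neurons of the forebrain, the Zic genes are also active in dorsal spinal cord and meninges, and Mfap4 encodes an extracellular matrix protein found in fibroblasts and smooth muscle. In bulk tissue, more cells of a type and more RNA per cell cannot be told apart.

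The sequences before the start sites of 4 of the genes are given here because they come from genes with different behaviour in these samples. Atoh1 marks the precursors. Neurod1 and Neurod2 are close relatives whose brightest probe sets moved differently with age, while a dimmer Neurod2 probe set rose more than its brightest. Barhl1 is one of the members with a match to an E-box spelling searched here. E-boxes are the sites bound by proteins of the Atoh1 and Neurod family, and their other spellings were not searched or marked. Each is the 250 bases before a RefSeq start site in build GRCm38.p6, written 5′ to 3′ on the gene's strand. Capitals mark a match to one of the motifs searched on both strands, which were the E-boxes spelled CAGCTG and, as a variant of it, CAGATG, and the GLI site of Sonic hedgehog signalling spelled GACCACCCA.
Atoh1, chr6:64728875-64729124, plus strand: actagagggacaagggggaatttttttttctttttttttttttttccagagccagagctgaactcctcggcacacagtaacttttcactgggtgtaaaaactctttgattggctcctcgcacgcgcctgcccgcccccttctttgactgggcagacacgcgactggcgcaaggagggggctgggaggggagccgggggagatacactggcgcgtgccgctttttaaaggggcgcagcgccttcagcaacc
Neurod1, chr2:79456637-79456886, minus strand: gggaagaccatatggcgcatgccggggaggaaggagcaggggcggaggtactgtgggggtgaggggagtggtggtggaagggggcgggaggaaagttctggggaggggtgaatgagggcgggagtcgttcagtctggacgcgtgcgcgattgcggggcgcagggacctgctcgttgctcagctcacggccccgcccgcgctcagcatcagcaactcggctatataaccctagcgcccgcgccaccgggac
Neurod2, chr11:98329646-98329895, minus strand: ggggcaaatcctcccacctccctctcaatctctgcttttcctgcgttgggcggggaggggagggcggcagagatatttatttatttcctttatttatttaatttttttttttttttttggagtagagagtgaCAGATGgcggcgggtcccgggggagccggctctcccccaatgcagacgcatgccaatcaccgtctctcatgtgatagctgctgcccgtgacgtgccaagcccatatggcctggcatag
Barhl1, chr2:28916669-28916918, minus strand: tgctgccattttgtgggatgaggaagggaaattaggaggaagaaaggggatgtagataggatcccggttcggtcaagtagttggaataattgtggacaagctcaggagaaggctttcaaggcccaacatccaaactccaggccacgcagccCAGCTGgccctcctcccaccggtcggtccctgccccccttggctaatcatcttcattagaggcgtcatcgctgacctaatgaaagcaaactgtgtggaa
Windows were found for 6 of the 10 genes, 8 windows in all. CAGCTG occurred in both Barhl1 windows, 99 bases before the start in the one printed and 15 in the other. CAGATG occurred once, 118 bases before the Neurod2 start, and GACCACCCA in none of the 8. Of 32851 such windows, 13% held CAGCTG, 14.4% held CAGATG and 0.225% held GACCACCCA. A match is a run of letters and not a measured binding site, and a window without one says nothing of the factor.

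Array medians ran from 607 to 737 in signal, the deposited intensity on a linear scale. Grin3b itself read 155 to 353 in the 6 wild-type samples and 31.4 to 96.9 in the 6 knockout samples. One P0WT sample, replicate 1, stood apart in 18S ribosomal RNA on its brightest control probe set (7728, against 48910.6 or more in the other 11). Samples of a group spread more at day 0 than at day 5: the SD of the median gene, in log2 units, was 0.269 in P0WT and 0.21 in P0KO, then 0.119 in P5WT and 0.133 in P5KO. Since the groups share an estimate of the spread for each gene, the SEs below can be too small at day 0 and too large at day 5. As for the labelled tissue, all 16 Hox genes measured, which mark hindbrain and spinal cord, lay above the filter on dim probe sets. En2, which marks midbrain and cerebellum, did too. Of 11 forebrain glutamatergic genes measured, 4 lay below it, namely Tbr1, Emx1, Fezf2 and Neurog2. Differences are given in log2 units, taken from values of log2(signal + 16) that were then quantile-normalized. The added 16 understates the change of dim genes. The threshold for calling a gene was 0.05 on limma's p after Benjamini-Hochberg adjustment across 12600 genes.

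Between birth and day 5 the granule cell genes rose in both genotypes. In wild type 9 of the 10 were called higher, where 10.8% of all tested genes were, and in knockout the same 9 were, where 5.54% were. Neurod2 was the member not called in either. For 9 members in each genotype the normalized levels of the ages did not overlap in the upward direction, as for 18.4% of all tested genes in wild type and 14.6% in knockout. The median difference over the 10 genes was 2.11 in wild type and 1.97 in knockout, against 0.03 and -0.03 over all tested genes. All 10 passed the filter, but Mfap4 did so only through its level at day 5 and so had to differ with age. Without Mfap4 the count is 8 of 9 in each genotype.

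**Figure D1:**
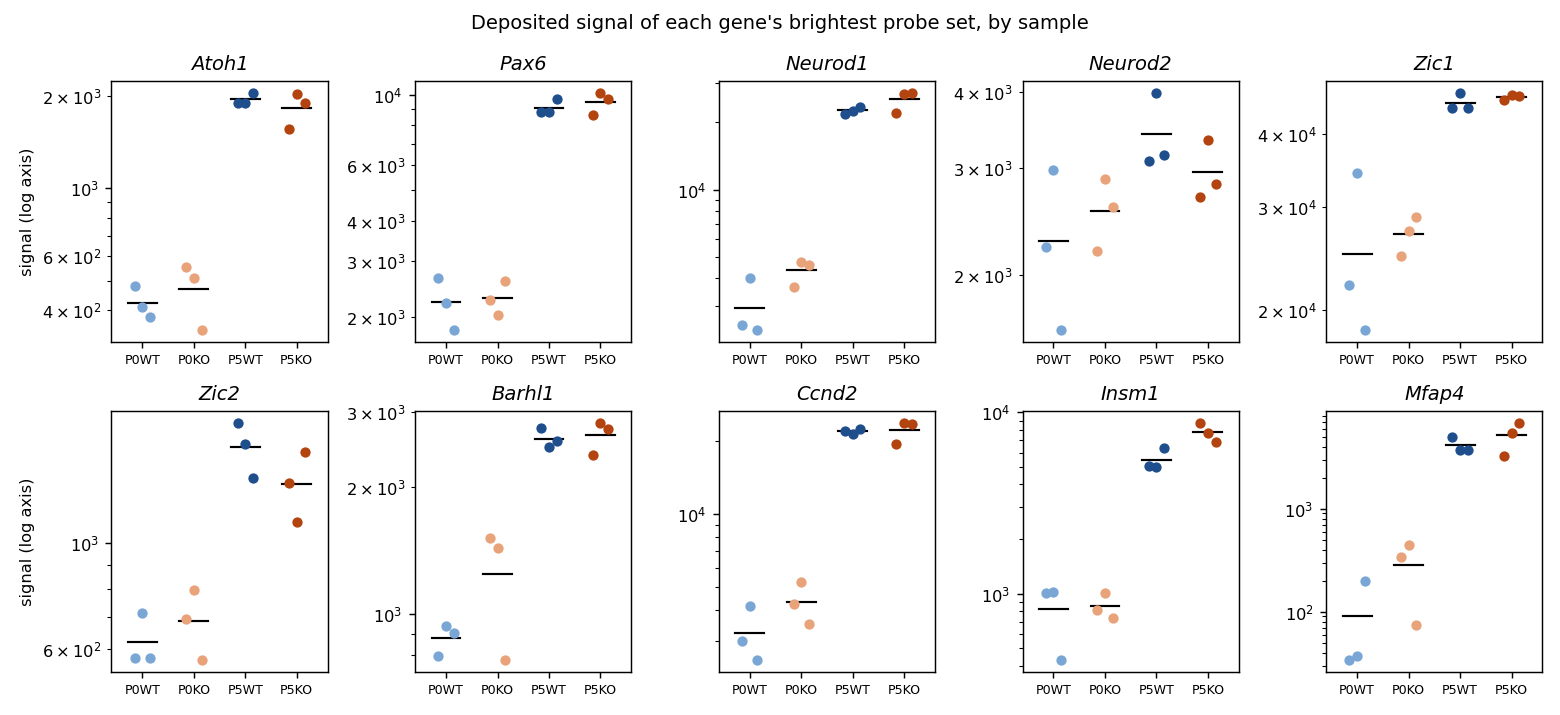
Deposited signal on a log axis for each of the 10 genes, with 1 point per sample, 4 groups of 3 samples and a bar at the group mean. For 9 genes every day 5 sample lies above every day 0 sample, while for Neurod2 the ages overlap.

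Atoh1 (probe set 1449822_at), the transcription factor that specifies granule cell precursors, stood at a signal of 479, 411 and 379.5 in P0WT and 552, 511 and 345.5 in P0KO. It read 1899, 1899 and 2043.5 in P5WT and 1559.9, 2022.5 and 1892 in P5KO. The ages did not overlap, while the genotypes did at each age. The rise was 2.16 (SE 0.18), or 4.46-fold, in wild type (limma adjusted p = 1.35e-05) and 1.92 (SE 0.18), or 3.78-fold, in knockout (adjusted p = 2.99e-05).

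Pax6 (1419271_at), a paired-box factor kept on in granule precursors and their neurons, rose by nearly the same amount. Its signal was 2646, 2210.4 and 1818 in P0WT, 2264, 2021 and 2582 in P0KO, 8793, 8804 and 9700.5 in P5WT and 8621, 10118.5 and 9708 in P5KO. The difference was 2.06 (SE 0.15) in wild type and 2.02 (SE 0.15) in knockout (limma adjusted p = 4.24e-06 and 5.37e-06). A second Pax6 probe set above the filter rose by 1.71 and 1.74. The other 3 Pax6 probe sets lay below the filter and were not called in either genotype, with differences from -0.10 to 1.85.

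Zic1 and Zic2 encode zinc-finger factors that keep dorsal progenitors, granule precursors among them, from differentiating early. Zic1 (1423477_at) read 22021, 34359.7 and 18475 in P0WT, 24746, 27318 and 28869.8 in P0KO, 44265, 47054 and 44356 in P5WT and 45739.9, 46592 and 46568 in P5KO. P0WT replicate 2 was the highest of the day 0 samples for Zic1, and the P0WT samples spread more than those of any other group. The rise was 0.90 (SE 0.15) in wild type and 0.82 (SE 0.15) in knockout (limma adjusted p = 0.00134 and 0.00333). In the second Zic1 probe set it was 0.59 (adjusted p = 0.12 over all probe sets) and 0.87 (adjusted p = 0.0363).

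Zic2 (1421301_at) was a dimmer probe set with a clear step between the ages. The 3 signals were 575, 715 and 575 in P0WT, 695, 799.6 and 569.9 in P0KO, 1782, 1609 and 1371 in P5WT and 1334, 1109 and 1549.8 in P5KO. It rose by 1.32 (SE 0.19) in wild type and 0.90 (SE 0.19) in knockout (limma adjusted p = 0.000634 and 0.00932). Without P5KO replicate 3 the rise in knockout was 0.77 and no longer called (adjusted p = 0.0565).

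Barhl1 (1418812_a_at), a homeobox factor of postmitotic and dividing granule cells, rose in both genotypes. P0WT samples read 795, 937 and 904, P0KO samples 1515, 1437 and 779.6, P5WT samples 2753, 2489.9 and 2560.2 and P5KO samples 2375, 2829.8 and 2746. By these deposited signals, replicates 1 and 2 of P0KO were above all P0WT samples and replicate 3 was below them. In normalized log2 levels P0KO replicate 3 stood at 9.83, among the P0WT samples at 9.61, 9.94 and 9.81. The difference with age was 1.55 (SE 0.19) in wild type and 1.09 (SE 0.19) in knockout (limma adjusted p = 0.000162 and 0.00269), and the second Barhl1 probe set gave 1.05 and 0.87. At day 0 that second probe set read 645, 460 and 631 in P0WT and 823, 696 and 658 in P0KO, without overlap. Its genotype difference there was 0.39 (SE 0.20; limma adjusted p = 0.441 over all probe sets).

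Ccnd2 (1416122_at) encodes cyclin D2, which carries granule precursors through G1 of the cell cycle. Its signal was 2989, 4184 and 2497.5 in P0WT, 4266, 5249.6 and 3511 in P0KO, 21836, 21295 and 22318 in P5WT and 19294, 23598 and 23493 in P5KO. The rise was 7.09-fold in wild type (2.82, SE 0.19; limma adjusted p = 2.16e-06) and 4.96-fold in knockout (2.31, SE 0.19; adjusted p = 1.14e-05). The 6 other Ccnd2 probe sets rose as well, by 1.65 to 2.49 in wild type and 1.39 to 2.76 in knockout.

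Neurod1 (1426412_at) is a basic helix-loop-helix factor that drives differentiation as precursors leave the cycle. By brightest probe set it had the largest rise in wild type among the transcription factors of the set. That order was not tested, and the second Insm1 probe set rose by 3.17. Signals of 2486, 4008 and 2355 in P0WT and 3674, 4751 and 4616 in P0KO stood against 21883, 22595 and 23477 in P5WT and 22162, 26880.1 and 27144.5 in P5KO. The difference was 3.02 (SE 0.19), or 8.09-fold, in wild type and 2.52 (SE 0.19), or 5.73-fold, in knockout (limma adjusted p = 2.03e-06 and 6.11e-06). The second Neurod1 probe set gave 3.03 and 2.49.

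Insm1 (1455865_at), a zinc-finger repressor switched on in neuronal precursors near their last divisions, rose as strongly. It read 1007, 1018 and 431 in P0WT and 812, 1008 and 733 in P0KO, then 5082, 4983 and 6346 in P5WT and 8722, 7706 and 6817 in P5KO. The rise was 2.82 (SE 0.26), or 7.05-fold, in wild type and 3.13 (SE 0.26), or 8.74-fold, in knockout (limma adjusted p = 2.33e-05 and 1.32e-05). Its second probe set gave 3.17 and 3.06.

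Mfap4 (1424010_at) went from dim to bright. P0WT samples read 34.0, 37.3 and 199, P0KO samples 339, 448 and 74.3, P5WT samples 4996, 3685 and 3693 and P5KO samples 3270.5, 5462 and 6789.6. The day 0 means of 6.39 in P0WT and 7.94 in P0KO lay under the filter level of 8.72 on the log2 scale, so the size of the change cannot be read from them. Measured from the filter level, the day 5 level was 9.62-fold higher in P5WT and 11.8-fold higher in P5KO. The fitted differences of 5.60 and 4.33 depend on the dim day 0 signals: without P0WT replicate 3 the fitted wild-type fold was 77.7, and without P0KO replicate 3 the knockout fold was 12.7, against 48.5 and 20.2 with all samples.

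Neurod2, a relative of Neurod1 found in maturing excitatory neurons, was the exception. Its brightest probe set (1435411_at) read 2223, 2976 and 1627.5 in P0WT and 2193, 2884 and 2586 in P0KO. The day 5 signals were 3077, 3988 and 3157 in P5WT and 2693, 3340.2 and 2821 in P5KO, so the ages did not overlap in wild type by the deposited signals, while they overlapped in knockout. The difference was 0.62 (SE 0.22; limma adjusted p = 0.0597) in wild type and 0.18 (SE 0.22; adjusted p = 0.676) in knockout. The wild-type difference was called without P0WT replicate 2 (0.86, adjusted p = 0.0031) and without P0KO replicate 1 (0.62, adjusted p = 0.0497). A dimmer Neurod2 probe set above the filter (1418995_at) gave 2.03 (SE 0.35; adjusted p = 0.0041 over all probe sets) in wild type and 1.07 (SE 0.35; adjusted p = 0.133) in knockout. With the mean of all its probe sets Neurod2 was called in wild type (1.27, adjusted p = 0.00367), so its age change depends on the probe set.

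**Figure D2:**
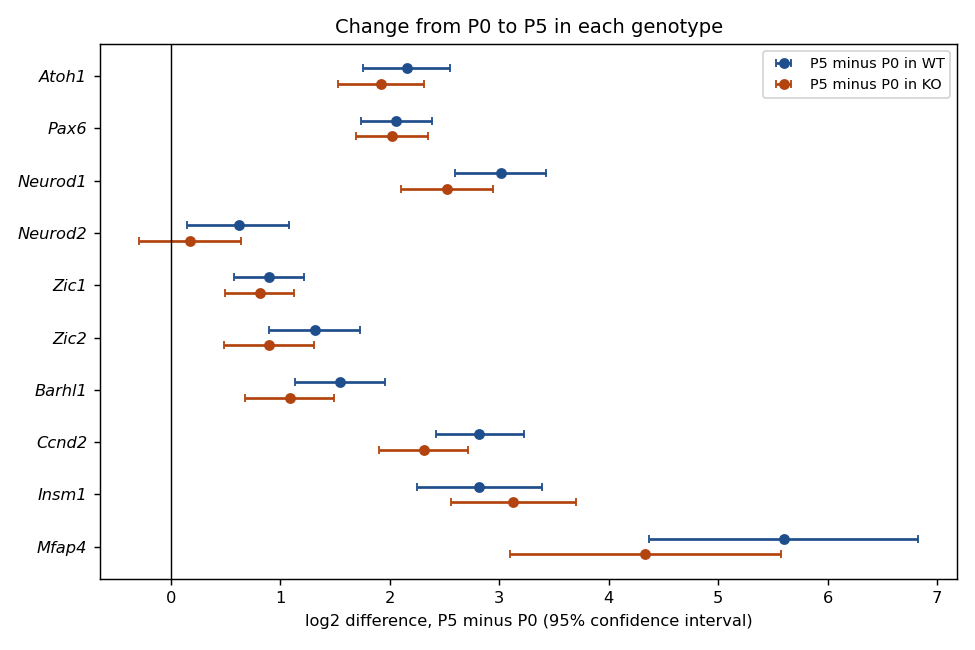
Log2 difference between day 5 and day 0 for each gene, with points at the estimate and bars at the 95% confidence interval of the limma fit, wild type in blue and knockout in orange. All intervals except that of Neurod2 in knockout lie above 0, and the intervals of both genotypes overlap for each gene.

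The rise was not shown to differ between the genotypes for any of the 10 genes. The genotype by age interaction was above 0, a larger rise in knockout, for 1 of the 10, where 43% of all tested genes were, and that gene, Insm1, lay below 0 with array weights (-0.36) and without P0WT replicates 1 and 2 (-0.49). Pax6 and Zic1 came to lie above 0 without P0WT replicate 3. It ran from -1.27 (SE 0.81) for Mfap4, which was below the filter at day 0, to 0.31 (SE 0.37) for Insm1, and the limma adjusted p was 0.743 or more for each. Members at an unadjusted p under 0.05 numbered 0, against 4.96% of all genes, and called members 0, against 0% of all genes. Ccnd2 at -0.51 (95% interval -1.09 to 0.06) and Neurod1 at -0.50 (-1.09 to 0.09) came nearest. The day 0 samples of both genotypes enter this contrast too, so it is not separate evidence from their own comparison.

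Knockout and wild type did not differ past the threshold at day 0 for any of the 10 genes. In the brightest probe sets their samples overlapped for each gene, while 10.1% of all tested genes had no overlap. By deposited signal, knockout lay above wild type without overlap in the second probe sets of Neurod1, Neurod2 and Barhl1. Called members were 0 of 10, against 0.0238% of all genes, and 4 were at an unadjusted p under 0.05, against 16.2%. Those 4 were all higher in knockout. They were Neurod1 at 0.63 (SE 0.19; limma adjusted p = 0.287), Barhl1 at 0.51 (SE 0.19), Ccnd2 at 0.50 (SE 0.19) and Mfap4 at 1.55 (SE 0.57; adjusted p = 0.287). For Mfap4 both groups lay below the filter, and its value was 2.23 without P0WT replicate 3 and 0.20 without P0WT replicates 1 and 2. All 10 estimates were above 0, with a median of 0.23, where 59% of all genes were above 0 and their median was 0.07. Pax6 at 0.10, Zic1 at 0.09 and Insm1 at 0.20 changed sign without P0WT replicate 3. The confidence interval left out a 2-fold difference for 8 of the 10, the exceptions being Neurod1, with an upper bound of 1.05, and Mfap4, with 2.79. The share of all genes for which it did so is not given here. These intervals use the shared spread, which can be too small at day 0. Over the alternatives the Insm1 estimate ran from -0.20 to 1.01.

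The day 0 comparison rests on which wild-type samples are used. In the brightest probe sets, P0WT replicate 2 had the highest normalized level of the 3 for Neurod1, Neurod2, Zic1, Zic2, Barhl1, Ccnd2 and Insm1, and replicate 3 the lowest for 7 of the 10 genes. Other probe sets ranked these samples differently. By deposited signal, replicate 1 was the highest in the second probe sets of Neurod1, Neurod2, Zic1 and Barhl1. In that of Insm1 replicate 3 was, at 674 against 479 and 565, and the Ccnd2 probe sets did not rank the samples alike. Without replicate 2, Neurod1 was called higher in knockout at 0.90 (limma adjusted p = 0.00246, against 0.00246 to 0.654 over 26 alternatives). Ccnd2 was called too, at 0.73 (adjusted p = 0.00684, against 0.00341 to 0.665), while 21.3% of all genes were called in that fit. For Neurod1 the second probe set read 1836, 1555 and 1548 in P0WT and 2055, 2627 and 2420.3 in P0KO, with no overlap and a difference of 0.56 (SE 0.17; adjusted p = 0.359 over all probe sets). For Ccnd2 the 6 other probe sets differed by 0.35 (SE 0.14), 0.30 (SE 0.18), 0.30 (SE 0.24), 0.27 (SE 0.16), 0.01 (SE 0.13) and -0.82 (SE 0.45), and none was called over all probe sets.

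Summed signals of markers of other cells differed between the genotypes at day 0, although 0 of the 18 meningeal, 8 microglial and 2 red blood cell genes tested were called. The summed signal of 18 meningeal and fibroblast genes was 96358 to 127478 in P0WT and 170805 to 200809 in P0KO, that of 4 red blood cell genes 1160 to 1870.3 and 2758 to 4185, and that of 10 microglial genes 16786 to 24885 and 24715 to 30719.8. The first and the second did not overlap between the genotypes, and the microglial sums did by a narrow margin. At day 5 the microglial sums were 29470 to 30971 in P5WT and 35977 to 38257 in P5KO, without overlap. The meningeal and the red blood cell sums overlapped at that age. No marker was at 0, since these arrays give a signal for every probe set. Purkinje cell genes summed to 40715 to 65133 in P0WT and 50051 to 70902 in P0KO. Their part in the differences of Mfap4, Barhl1, Ccnd2 and Neurod1 was not tested.

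At day 5 the genotypes were close in the members. Called members were 0 of 10, against 0.00794% of all genes, and 0 were at an unadjusted p under 0.05, against 1.85%. The estimates ran from -0.22 (SE 0.19) for Zic2 to 0.51 (SE 0.26) for Insm1, 6 of the 10 above 0 against 51.6% of all genes, with a median of 0.02, and limma's adjusted p was 0.9999 for each. The confidence interval left out a 2-fold difference for 8 of 10, the exceptions being Insm1 (-0.06 to 1.08) and Mfap4 (-0.94 to 1.52). The like share of all genes is not given here. Atoh1 differed by -0.08 (-0.47 to 0.31), Pax6 by 0.05 (-0.28 to 0.38) and Neurod1 by 0.13 (-0.28 to 0.55). In the brightest probe sets, Insm1 was the only member whose groups did not overlap, where 12.9% of all genes had no overlap.

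**Figure D3:**
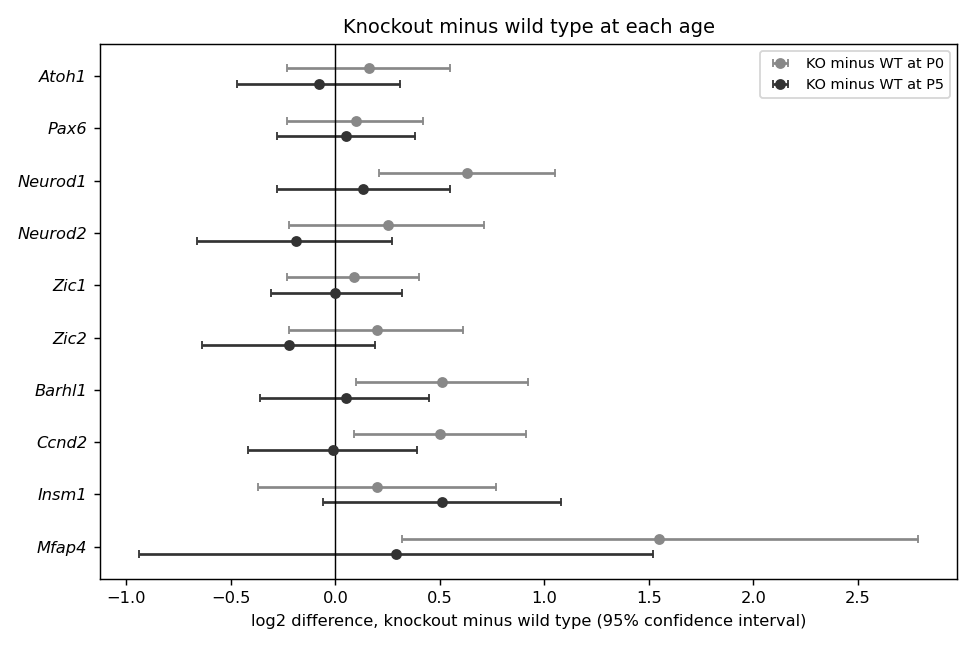
Log2 difference between knockout and wild type for each gene at day 0 (grey) and day 5 (black), with bars at the 95% confidence interval of the limma fit. All day 0 points lie above 0, 6 of the day 5 points do, and no difference passed the threshold.

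Probe sets of 1 gene did not always read the genotypes alike. For Neurod2, 1418995_at was higher in knockout at both ages, with 540, 314 and 146 in P0WT, 937, 646.5 and 1024 in P0KO, 1202, 1321 and 1258 in P5WT and 1689.7, 2273 and 1618 in P5KO. The groups of each age did not overlap, and the differences were 1.53 (SE 0.35) at day 0 and 0.57 (SE 0.35) at day 5, at a limma adjusted p over all probe sets of 0.359 and 0.9999. The brighter probe set gave 0.25 (SE 0.22) and -0.19 (SE 0.22). For Insm1 at day 5, 1421399_at read 4674, 5135 and 5835 in P5WT and 4687, 5687 and 4815 in P5KO, a difference of -0.03 (SE 0.19), where the brighter probe set gave 0.51. Genotypes without overlap were therefore seen in a single probe set of each of these genes, while at day 0 both Neurod2 estimates were above 0.

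**Figure D4:**
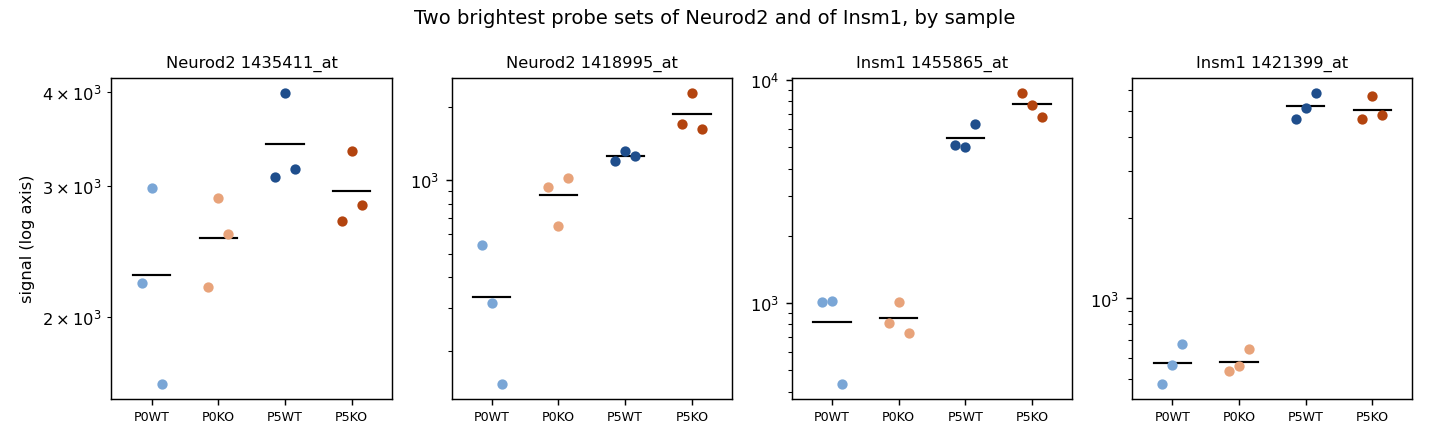
Deposited signal on a log axis for the pair of brightest probe sets of Neurod2 and of Insm1, with 1 point per sample and a bar at the group mean. Every knockout sample lies above every wild-type sample at both ages for Neurod2 1418995_at and at day 5 for Insm1 1455865_at. In the other probe set of either gene the genotypes overlap at each age.

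Averaged over both ages, 0 of the 10 genes were called between the genotypes, against 0.0238% of all genes. Neurod1 at 0.38 (SE 0.14; limma adjusted p = 0.576) and Mfap4 at 0.92 (SE 0.41; adjusted p = 0.576) were at an unadjusted p under 0.05, or 2 of 10 against 8.63% of all genes. Neurod1 was called without P0WT replicate 2 (0.52, adjusted p = 0.0195). Averaged over both genotypes, the age difference was called for the same 9 genes, against 14.5% of all genes called higher. Leaving aside Mfap4, it ran from 0.86 (SE 0.10) for Zic1 to 2.97 (SE 0.19) for Insm1 among them, and was 0.40 (SE 0.15; adjusted p = 0.0654) for Neurod2. Neurod2 was called without P0WT replicate 2 (0.52, adjusted p = 0.00518).

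Other genes of the granule cell precursor programme rose over the same days. Of 14 tested, 11 rose and 0 fell in the age difference averaged over genotypes, with a median of 0.78 against 0.00 over all tested genes. Zic5 rose by 2.13 (SE 0.14), the hedgehog effector Gli2 by 1.78 (SE 0.15), the chemokine receptor Cxcr4, which holds precursors at the surface, by 1.51 (SE 0.13), and the helix-loop-helix factor Nhlh1 by 1.46 (SE 0.12). Among genes of hedgehog signalling, Mycn at 0.86 (SE 0.10) and Gli1 at 0.70 (SE 0.20) rose too, while the receptor and target Ptch1 at 0.08 (SE 0.16; limma adjusted p = 0.735) and the transducer Smo at 0.34 (SE 0.13; adjusted p = 0.0636) were not called. Cell cycle genes rose with them, 26 of 28 tested, with a median of 1.36. The proliferation marker Mki67 went from a signal of 3013 ± 512 in P0WT and 2786 ± 338 in P0KO to 13088 ± 1446.5 in P5WT and 12779 ± 1377.5 in P5KO (SD, n = 3 each).

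Genes of later granule cells were mixed. Of 14 tested genes of differentiating granule neurons, 8 rose and 4 fell, with a median of 0.57. The growth-arrest gene Cdkn1b rose by 1.22 (SE 0.20), the nuclear factor Nfib by 1.13 (SE 0.08), the netrin receptor Unc5c by 1.06 (SE 0.13) and the nuclear factor Nfia by 1.08 (SE 0.18). Those that fell were Dcx, Tubb3, Plxna2 and Astn1, and none of the genes named here is specific to granule cells. All 4 were called in wild type, and in knockout only Tubb3 was, at -0.51 (SE 0.13) against -0.41 (SE 0.13) in wild type. Dcx was at -1.63 (SE 0.35) in wild type and -0.33 (SE 0.35; limma adjusted p = 0.626) in knockout. The fall was not shown to differ between the genotypes. The genotype by age interaction was 1.30 (SE 0.50) for Dcx, and its limma adjusted p was 0.7429 or more for each of the 4. Of 10 genes of mature granule neurons with a probe set, 4 lay below the filter and were not tested, namely Gabra6, Gabrd, Grin2c and Slc17a7. Of the 6 tested, 5 rose and 1 fell, among them Fat2 at 2.27 (SE 0.39), Cadps2 at 1.47 (SE 0.11) and Cbln3 at 1.09 (SE 0.16), with Kcnd2 lower at -0.41 (SE 0.09). Gabra6, a GABA receptor subunit typical of mature granule cells, was below the filter and read 183 ± 128 in P0WT, 274.5 ± 110.5 in P0KO, 580.5 ± 57.9 in P5WT and 762 ± 324 in P5KO (SD, n = 3 each).

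Cells around the granule lineage changed over the same days, and these values stand beside the rise of the members. Of 10 tested Purkinje cell genes, 5 rose and 0 fell, with Pcp2 at 4.87 (SE 0.33), Car8 at 1.97 (SE 0.14) and Calb1 at 1.81 (SE 0.12). En2 rose by 1.06 (SE 0.19) and Gdf10, of cerebellar glia, by 1.51 (SE 0.13). Hox genes fell, 13 of 16, with a median of -0.86. Their summed signal was 49316 to 83244 in P0WT, 54405 to 73879 in P0KO, 36656.5 to 36887 in P5WT and 29948 to 35074 in P5KO, with no overlap between the ages. Of 7 tested forebrain glutamatergic genes 1 rose, Eomes, which also marks unipolar brush cells of the cerebellum, and 1 fell, Bcl11b, with a median of -0.14. The part of tissue makeup in the members' rise was not tested. In the genotype comparisons at each age, 0 genes of any of these lists were called.

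**Figure D5:**
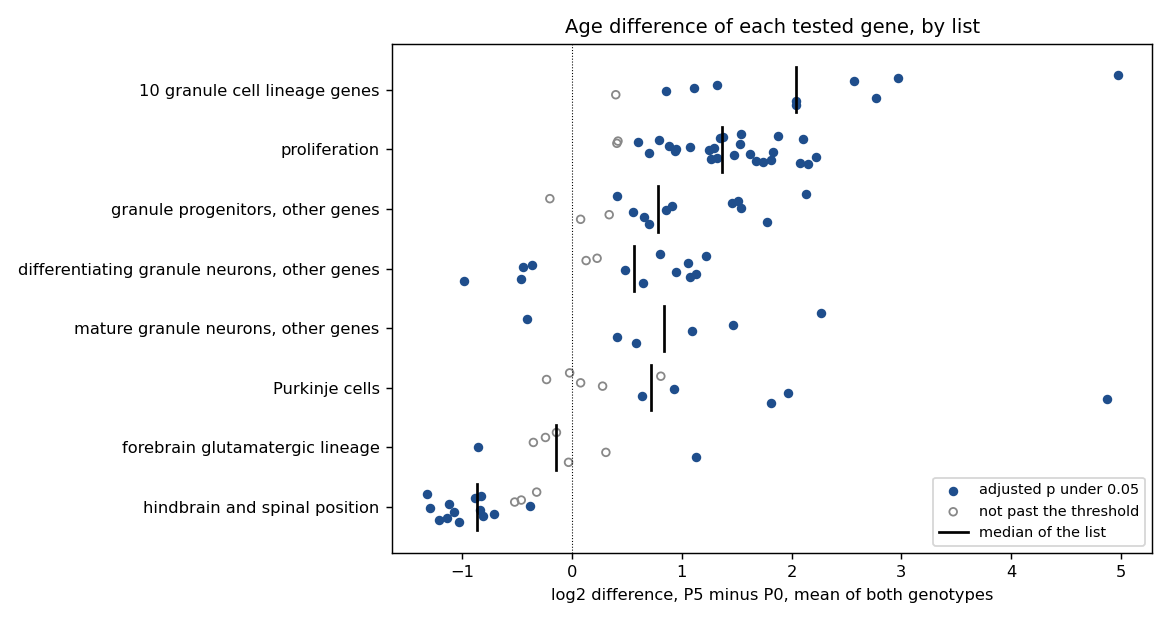
Log2 difference between day 5 and day 0, averaged over genotypes, for each tested gene of 8 groups, with 1 point per gene, filled where it passed the threshold, and a line at the group's median. The 10 granule cell lineage genes lie around a median of 2.04, cell cycle genes around 1.36 and Hox genes around -0.86.

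The genes most like Atoh1 over the 12 samples by Pearson correlation of log2 levels were Mki67 (r = 0.987), Ccnd2 (0.985), Pax6 (0.983), Ncapg (0.983) and Zbtb18 (0.983). Those most like Neurod1 were Ccnd2 (0.994), Pdlim3 (0.994), Pbk (0.992), Bcas1 (0.992) and Cdca8 (0.992). Ccnd2 and Pax6 are members of the set. Mki67, Ncapg, Pbk and Cdca8 act in cell division, while Zbtb18 is a neuronal transcriptional repressor, Bcas1 marks young oligodendrocytes and Pdlim3 encodes a cytoskeletal protein. These correlations describe 12 samples that share the step between the ages, and once group means were removed the r with Atoh1 was 0.22 to 0.48 and that with Neurod1 0.80 to 0.92.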

How the data were processed

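The values deposited by the authors are linear intensity signals, 1 per probe set. Which software made them is not stated here. Trimmed by 2% at each end, the mean signal came to 2500.01 on every array, which fits a scaling by 1 factor per array. Of 45101 probe sets, 64 controls were left out, and 34945 of the rest carried a single gene symbol in the platform annotation. Signals were transformed as log2(signal + 16) and quantile-normalized, since array medians spread over 0.273 on the log2 scale. Probe sets entered the test if their mean reached the 40th percentile (8.72), and of these a gene kept the one of highest mean deposited signal, which gave 12600 of 18193 genes. All 12 samples entered 1 limma fit of group means (version 3.58.1, R 4.3.3; prior trended on intensity, 8 residual degrees of freedom), which gave the 7 comparisons. The fit was tested on simulated data. Every adjusted p is limma's, by Benjamini-Hochberg over all genes tested, or over all probe sets where said. Arrays give no read depth, and 3 per group limits the precision. Members, gene lists and the rule for named genes (all 10 members, up to 4 genes of a list with the smallest p, the 5 genes most like Atoh1 and Neurod1) were chosen with earlier results of these data known. Other genes named, such as Mycn, Gli1, Ptch1, Smo and Gabra6, were chosen after their values were seen. No member lay below the filter, so the permutation test planned for such members was not needed. Promoter windows are from RefSeq.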

Additional observations from a re-analysis of the deposited data

How the results depend on the processing

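Over the alternatives (pseudocounts of 1 and 64, other scalings, filters and priors, array weights, other rules for probe sets, the replicate block and samples left out), 0 of the 70 member differences reversed a call. The 9 rises with age kept their call in both genotypes under every alternative in which the gene was tested, except Zic2 in knockout without P5KO replicate 3. The filter at the 60th percentile left out Atoh1, Zic2 and Mfap4. Genotype counts moved most in these settings. Array weights reweighted all 12 arrays (P0WT replicates 1, 2 and 3 at 0.36, 0.19 and 2.45). With them 3092 genes were called at day 0 (3 with equal weights) and 1527 in the interaction (0 with equal weights). The count of all genes over both ages is not given here. Called members with array weights numbered 5 at day 0, 3 over both ages and 3 in the interaction. Without P0WT replicates 1 and 2 together, a setting taken from earlier results that leaves 1 such sample assumed to vary like the others, they numbered 4 at day 0, among 551 genes called, and 1 over both ages, among 34. Leaving out 1 sample at a time gave 0 to 2 called members at day 0, 0 to 0 at day 5, 0 to 1 over both ages, 9 to 10 for age in wild type, 8 to 9 in knockout, 9 to 10 over both genotypes and 0 to 0 in the interaction. All genes called in those fits numbered 1 to 2690 at day 0, 0 to 3 at day 5, 1 to 734 over both ages and 0 to 172 in the interaction. For age they numbered 1198 to 4833 in wild type, 652 to 1965 in knockout and 2822 to 5360 over both genotypes. Over all genes, calls for age ran from 1198 (without P5WT replicate 1) to 6032 (array weights) in wild type, against 2442 as reported, and from 652 (without P5KO replicate 2) to 2164 (without P0WT replicates 1 and 2) in knockout, against 1321. The cause was not tested. Replicate numbers are shared between groups, and of 18 pairs of same-numbered samples 4 deviated together at r over 0.1 (range -0.13 to 0.42). The highest values were those of P0WT and P0KO replicates 1 (0.42) and replicates 2 (0.38), while replicates 3 of these groups were at 0.06. Differently numbered samples are not set beside them, so these values cannot tell whether the numbers pair the samples. With the replicate block, Neurod2 was also called for age in wild type (0.62, adjusted p = 0.0205), which made 10 members, and over both genotypes (0.40). A probe set chosen by mean log2, added after seeing the data, changed no count of called members. Dim signals limit Mfap4 at day 0 most.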

Other observations

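Relatives of the members outside the set were tested by the same fit. Of 6 tested, 3 rose with age averaged over genotypes, Zic5, Ccnd1 at 1.54 (SE 0.19) and Zic4 at 0.41 (SE 0.11), and 1 fell, Atoh7 at -0.88 (SE 0.27; limma adjusted p = 0.0262). Ccnd1, the other D cyclin of granule precursors, read 2917 ± 1235 in P0WT, 3156 ± 1085 in P0KO, 8245 ± 469 in P5WT and 8751 ± 884.5 in P5KO (SD, n = 3 each). Ccnd3 and Neurod6, the latter a marker of forebrain excitatory neurons, were not called. Neurod6 read 3888 ± 550 in P0WT, 3853.5 ± 969.7 in P0KO, 3451 ± 282 in P5WT and 4096 ± 623 in P5KO. Neurod4, Neurog1, Neurog2, Barhl2 and Insm2 lay below the filter. Mfap2 and Mfap5, which share Mfap4's name and not its family, were not called averaged over genotypes, though Mfap2 fell in knockout (-0.60, SE 0.17; limma adjusted p = 0.0397) and was at -0.02 (SE 0.17) in wild type. That change was not shown to differ between the genotypes, with a genotype by age interaction of -0.58 (SE 0.24, limma adjusted p = 0.7429). Between the genotypes, 0 of these 8 tested genes were called at either age.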
